A study of Homo sapiens with 44 samples.

Results

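MOLM-14 is a human acute myeloid leukemia (AML) line, and its baseline expression was described here from 3 of the 44 arrays of a hairpin study in 4 AML lines. The 3 arrays are those of MOLM-14 cells that carried the scrambled control hairpin, and they were set against the 9 arrays of HL-60, THP-1 and U937 cells that carried the same hairpin, with 3 arrays and equal weight for each line. All cells, controls included, had been infected with hairpin virus, were put under puromycin at 1 µg per mL 48 h after infection, and gave RNA 48 h later. The baseline is therefore that of infected and drug-selected cells, each line is an established cell line, and no uninfected cells entered. A further 8 MOLM-14 arrays and 24 arrays of the other lines carried hairpins against GSK3A or GSK3B, and the lines were compared in them as well.

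MOLM-14 is known for the KMT2A-MLLT3 fusion, which keeps a set of progenitor genes active, and for an internal tandem duplication of the receptor tyrosine kinase FLT3, which signals without ligand through STAT5. THP-1 carries the same kind of KMT2A fusion and is monocytic, HL-60 is promyelocytic, and U937 is monocytic and derives from a histiocytic lymphoma. Comparing the lines asks which genes set MOLM-14 apart from other AML lines and which it shares with each of them.

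The values are array intensities on a linear scale, and differences are given on the log2(intensity + 16) scale after normalization between arrays, so that a difference of 1 is 2-fold and the fold of a dim gene is understated. Values after ± are standard errors from limma. A gene was called at a Benjamini-Hochberg adjusted p under 0.05 from limma. The number of arrays limits the precision. Over 12165 genes, the root mean square difference between the MOLM-14 control mean and the HL-60, THP-1 and U937 control means was 0.616, 0.638 and 0.670. MOLM-14 replicates 1 and 2 differed by 0.109 on the same measure, while replicate 3 differed from them by 0.220 and 0.219. U937 replicate 3 stood apart in the same way, by 0.276 and 0.278 against 0.0943 between the others. Replicate 3 of each line was in column 7 of the array plate and replicates 1 and 2 were in columns 1 and 2. Each line filled its own plate row, so row and line cannot be told apart.

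Of the 11 myeloid markers set for the check of cell type, 9 had a probe set of their own. In MOLM-14, 5 of these had a mean above an intensity of 100, the highest being ELANE, neutrophil elastase, at 3262, and the lowest CD14, the lipopolysaccharide co-receptor of mature monocytes, at 9.77. The summed level of the 9 markers was 5379.5 to 7011.7 over the MOLM-14 arrays, 11480.0 to 12571 in HL-60, 8814.6 to 9498 in THP-1 and 4594 to 7475 in U937. None of the measured markers set for erythroid, megakaryocyte, B, or epithelial and stromal cells passed 100 in any of the lines, and among the T and NK markers NKG7 alone did. In these bulk samples, fewer cells of a type and less RNA per cell cannot be told apart.

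Against the mean of the other lines, 2353 genes were higher in MOLM-14 (19.3% of those tested) and 2678 were lower (22%). At least 2-fold differences were found for 356 higher genes (2.93%) and 267 lower ones (2.19%). A difference from a mean can come from a single line, so a stricter call required a difference of the same sign from each of the 3 lines. By that call 760 genes were higher than in every other line (6.25%) and 578 were lower (4.75%). Of these, 108 were at least 2-fold higher than the nearest line (0.888%) and 42 at least 2-fold lower (0.345%). The 3 MOLM-14 arrays lay above all 9 others for 929 genes (7.64%) and below them for 797 (6.55%), of which 717 (5.89%) and 529 (4.35%) also had the call against every line. The p-values measure the spread between arrays of 1 line, not the spread between AML lines. With the line means as samples, 1 against 3, limma called 0 genes, with 578 at an unadjusted p under 0.05 and a smallest adjusted p of 0.166.

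The same calls were looked for in the hairpin arrays. No array is in both comparisons, but the joint normalization and the common estimate of the spread use all arrays, so that 16 of the 24 residual degrees of freedom behind the control calls come from hairpin arrays. Of the 760 genes higher than in every line, 704 (92.6%) had the same call there, and of the 578 lower genes, 499 (86.3%) did. In the hairpin arrays 1265 of all genes were higher than in every line (10.4%) and 980 were lower (8.06%). With control and hairpin arrays each normalized and fitted alone, a setting added after the data had been seen, 744 of 810 higher genes (91.9%) and 513 of 622 lower ones (82.5%) had the same call in both, beside 9.95% and 7.77% of all genes in the hairpin arrays. Of the genes past 2-fold in these control arrays, 107 of 108 higher and 42 of 42 lower ones had the call in the hairpin arrays. Both comparisons are of the same 4 lines, so they repeat the arrays and not the lines. A difference between control and hairpin arrays in how MOLM-14 stood to the other lines was called for 133 genes (1.09%). How MOLM-14 stood to the other lines was called different between plate columns 1 to 6 and 7 to 11 for 4070 genes (33.5%). That difference reached 2-fold in 41 (0.337%). The call was also made with columns 1 to 6 alone for all 108 and all 42 genes past 2-fold, and replicate 3, in column 7, had the same sign against every line for 107 and 42 of them, but these are the arrays whose means chose the genes.

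Several of the largest differences were in genes bright in MOLM-14 and dim in most or all other lines, and the 15 highest and 15 lowest genes by distance from the nearest line, taken among genes without overlap between arrays, all had the same call in the hairpin arrays. SOCS2, a feedback inhibitor of cytokine receptor signalling that STAT5 induces, had intensities of 1543, 1499 and 1298 in MOLM-14, against 10.6, 10.1 and 8.80 in HL-60, 56.2, 55.7 and 46.1 in THP-1 and 72.2, 68.5 and 105 in U937. Every MOLM-14 array lay far above every other array, and U937 came nearest, with a difference of 3.93 ± 0.16 (adjusted p = 1.1e-17). PDLIM1, a cytoskeletal adaptor with PDZ and LIM domains, had 3480.5, 3160.2 and 3365 in MOLM-14, 519, 388 and 439 in THP-1, 10.1, 13.1 and 9.72 in HL-60 and 10.1, 9.01 and 7.86 in U937. THP-1 thus held an intermediate level, 7.33-fold below MOLM-14, and HL-60 and U937 were at the dim end of the array.

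Among the 15 genes farthest above the nearest line were ZIC1, TFAP2A, NR2F1 and DLX5, transcription factors known from embryonic development. ZIC1, a zinc finger factor of neural development, had 265, 267 and 328 in MOLM-14 and no value above 8.44 in the other lines, a difference of 3.68 ± 0.07 from their mean (adjusted p = 3.2e-24). TFAP2A, a factor of neural crest and skin, had 327, 305 and 267 against at most 14.0 elsewhere. NR2F1, an orphan nuclear receptor also called COUP-TFI, had 430.2, 339.7 and 389.9, and its nearest line was THP-1 with 32.8, 28.8 and 26.7. The homeobox factor DLX5 had 184, 202 and 134 in MOLM-14 and 5.98 to 8.93 in the other lines. All 4 were also higher than in every line in the hairpin arrays. Other probe sets agreed in sign for NR2F1 (1 of 1, with a difference of 2.42), while the other 2 of TFAP2A showed differences of -0.01 and 0.24.

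Also among these 15, CADM1, an immunoglobulin-family adhesion molecule, had 826, 725 and 579 in MOLM-14 and 56.8, 46.8 and 55.1 in THP-1, the nearest line. F3, tissue factor, which starts blood coagulation, had 489, 559 and 796 against 71.0, 58.3 and 85.5 in HL-60, a 6.99-fold difference. DDIT4, an inhibitor of mTORC1 that stress induces, had 1742, 1648 and 1659.8, and the other 9 arrays ran from 82.0 to 288. ALDH1A3, a retinoic acid synthesizing enzyme, had 253, 248 and 375, and NPY, the secreted neuropeptide Y, had 265, 315 and 141, with replicate 3 the lowest of the MOLM-14 arrays for NPY and the highest for ALDH1A3. The epithelial keratin KRT18 (168, 142 and 201) and the small transmembrane glycoprotein SMAGP (249, 293 and 241) were above 11.9 and 17.8, the highest values of the other lines. JAG1, a Notch ligand named for its difference from THP-1, had 1173, 1059 and 925 against 169, 184 and 179 in HL-60, 30.1, 26.2 and 28.3 in THP-1 and 140.1, 145 and 196 in U937, again without overlap.

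**Figure D1:**
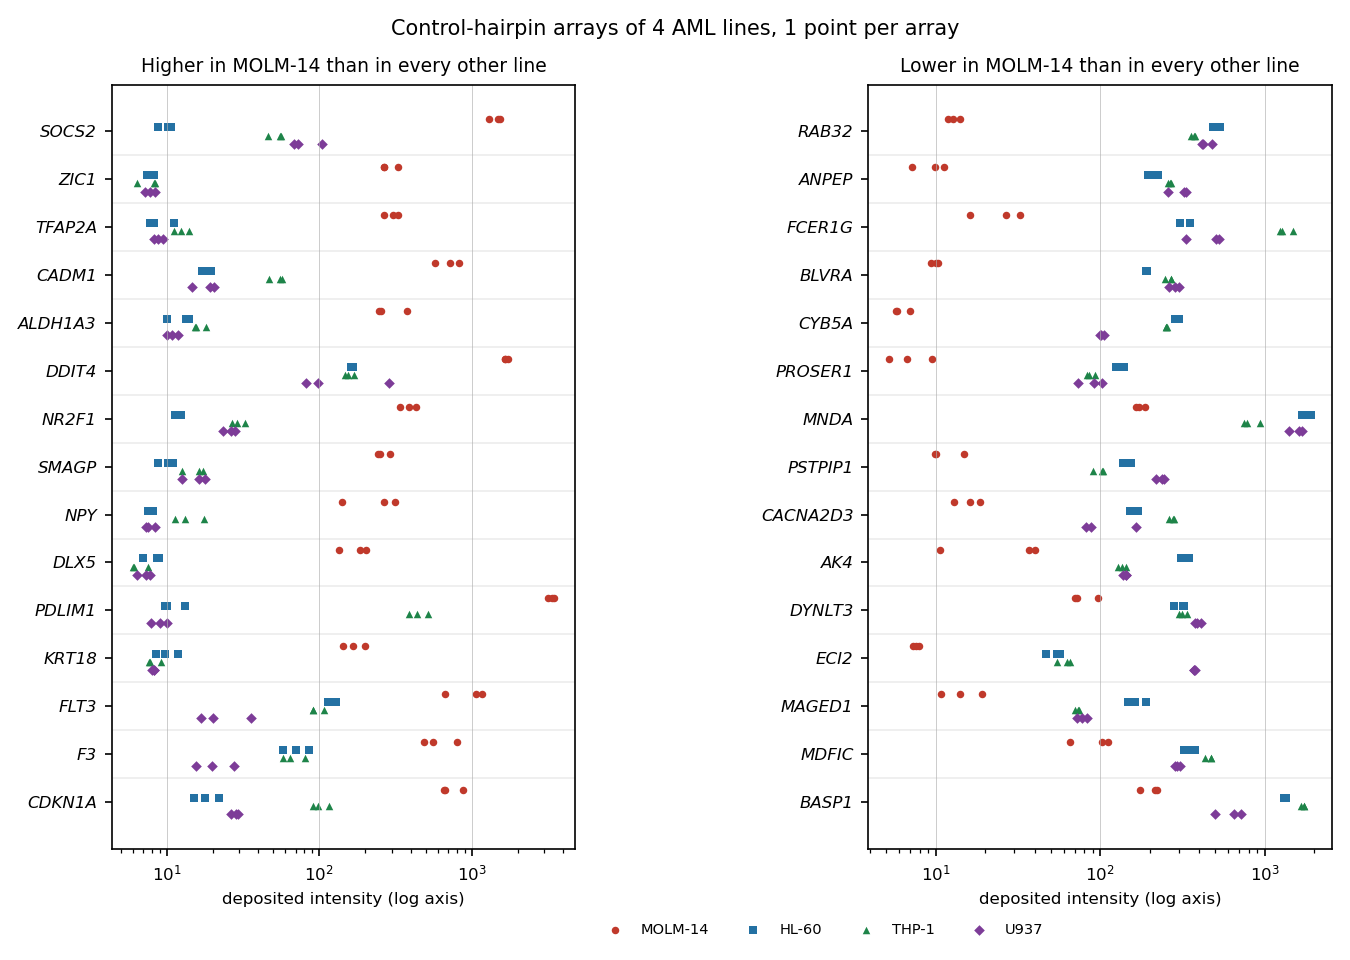
Deposited intensity (log axis) of the 15 genes higher and the 15 genes lower in MOLM-14 control cells with the largest distance from the nearest line, with 1 point for each of the 12 control arrays. The MOLM-14 points stand apart from the points of HL-60, THP-1 and U937 in every gene, which the choice of genes without overlap fixes, and SOCS2 runs from 8.80 in HL-60 to 1543 in MOLM-14.

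Among the 15 genes farthest below the nearest line, FCER1G, the Fc receptor gamma chain that carries the ITAM of activating receptors, had 32.7, 26.9 and 16.1 in MOLM-14, 306, 305 and 350.1 in HL-60, 1281, 1244 and 1493 in THP-1 and 509, 526 and 333 in U937. The difference from HL-60, the nearest line, was -3.04 ± 0.22 (adjusted p = 5.8e-12). ANPEP, the aminopeptidase known as CD13 on myeloid cells, had 7.19, 11.3 and 9.87, while the other 9 arrays ran from 196 to 331. MNDA, the myeloid nuclear differentiation antigen, was expressed at 166, 173 and 189 in MOLM-14, but at 750.0 to 1912 in the other lines. RAB32, a small GTPase of lysosome-related organelles, showed the largest gap of all lower genes, with 14.2, 11.9 and 12.8 against 357 to 537.

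Also in the lower group, BLVRA, biliverdin reductase A, had 10.1, 9.33 and 10.4 in MOLM-14 and 190.1 to 303 elsewhere. CYB5A, cytochrome b5, had 7.04, 5.75 and 5.86, and the nearest line was U937 with 105, 101 and 99.5. PSTPIP1, a cytoskeletal adaptor of leukocytes, had 10.1, 14.9 and 9.87, against 105, 90.1 and 103 in THP-1, the nearest line. ECI2, an isomerase of fatty acid oxidation, had 7.88, 7.57 and 7.26 in MOLM-14, 52.9 and 61.1 on average in HL-60 and THP-1, and 375 on average in U937. AK4, a mitochondrial adenylate kinase, had 40.4, 37.2 and 10.6, so that replicate 3 was the lowest MOLM-14 array by far. Its difference from the mean of the lines was -1.84 in columns 1 to 6 and -2.95 in replicate 3. The other genes of the group were PROSER1, CACNA2D3, DYNLT3, MAGED1, MDFIC and BASP1, whose nearest-line differences ran from -2.13 to -1.48.

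Targets of p53, the transcription factor that answers DNA damage with cell cycle arrest and apoptosis, were higher in MOLM-14 almost throughout. Of 20 measured members of a list of 25, 17 were higher than the mean of the other lines (85%), 0 were lower and 3 were not called. Over all genes 19.3% were higher and 22% lower, and the counts of this and the following lists stand beside those shares. Counts against every line stand beside the 6.25% of all genes that were higher and the 4.75% that were lower. The median difference was 0.74, beside -0.01 over all genes. CDKN1A, the cell cycle inhibitor p21, had intensities of 673, 661 and 883 in MOLM-14, 17.7, 15.1 and 21.9 in HL-60, 91.2, 97.7 and 116 in THP-1 and 29.3, 28.3 and 26.3 in U937. The lowest MOLM-14 array was far above the highest array of THP-1, the nearest line, and the difference from the mean was 3.76 ± 0.12 (adjusted p = 3.0e-20).

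Members with different roles were higher alike. SESN1, a stress sensor that restrains mTORC1, had 278, 261 and 476 in MOLM-14 and at most 121 elsewhere. ZMAT3, an RNA-binding protein, had 209.9, 206 and 271 against 82.8, 70.3 and 76.2 in HL-60, the nearest line. Both death receptors of the list were higher than in every line: FAS had 185, 174 and 179.6 against 24.6 to 81.9, and TNFRSF10B, a receptor of TRAIL, had 867, 851 and 735 against 184 to 506. BAX, the pore-forming BCL2-family protein of mitochondria, had 282, 302 and 359, above the 145 to 201 of the other lines. MDM2, the ubiquitin ligase that degrades p53, was dim in all lines but had 19.8, 16.3 and 19.1 in MOLM-14 and 6.96 to 12.5 elsewhere.

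In all, 13 of the 20 were higher than in every line, beside 6.25% of all genes. CCNG1, a cyclin that p53 induces, was above HL-60 and U937, but its difference of 0.14 ± 0.06 from THP-1 was not called (adjusted p = 0.0713). The apoptosis gene PMAIP1 was not called, with 687, 626 and 415 in MOLM-14 and a difference of -0.06 ± 0.13. The DNA repair gene XPC (0.00 ± 0.06) and the apoptosis gene BBC3 (0.26 ± 0.12, adjusted p = 0.0785) were not called either. With columns 1 to 6 alone PMAIP1 was called higher (0.23, adjusted p = 0.00328). BBC3 was called under several alternatives, among them columns 1 to 6 (0.34, adjusted p = 4.4e-04), the 12 control arrays alone (adjusted p = 0.0187) and the fit without HL-60 (0.33, adjusted p = 0.0312). The median over the 20 genes was 0.70, 0.68 and 0.72 against HL-60, THP-1 and U937, and 0.94 in the hairpin arrays. It was 0.70 in columns 1 to 6 and 1.03 in replicate 3.

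**Figure D2:**
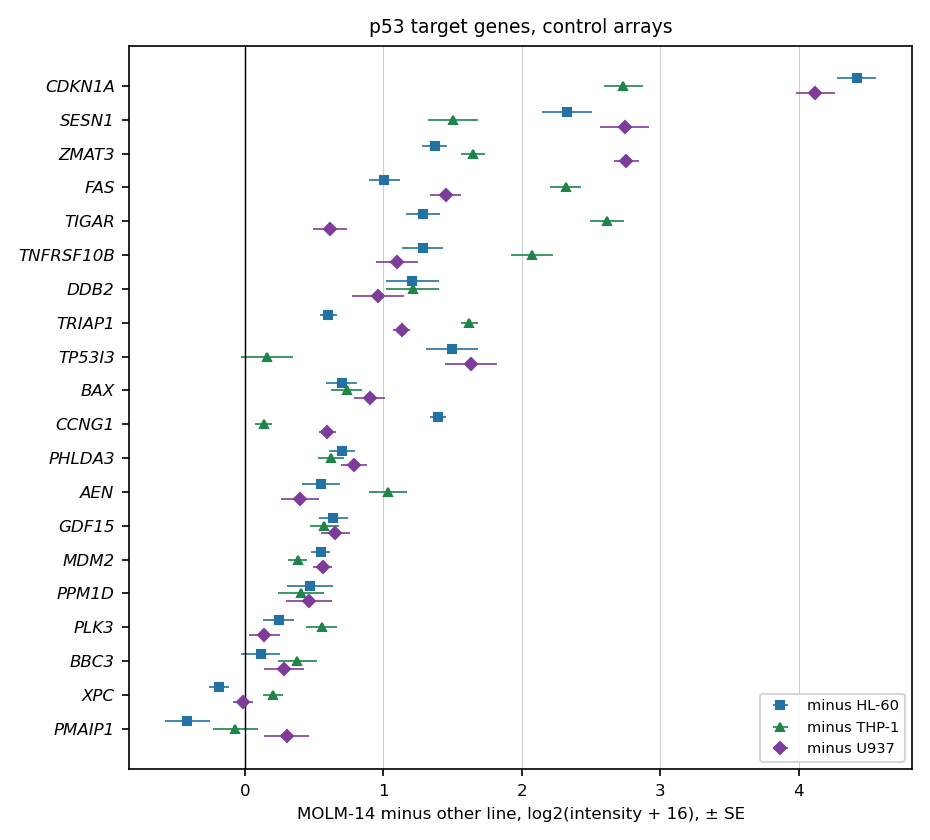
Difference of MOLM-14 from HL-60, THP-1 and U937 on the log2(intensity + 16) scale for the 20 measured p53 target genes in control arrays, with points at the estimate and bars of 1 standard error. CDKN1A lies between 2.73 and 4.42, and XPC and PMAIP1 at the foot lie on both sides of 0.

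The promoters of these genes were examined because so many of them were higher together. RefSeq sequence (GRCh38.p14) of the 250 bases before each transcript start was searched for the p53 response element, taken as 2 adjoining half-sites of 10 bases with at most 2 mismatches and the central C and G of each kept. The half-site is its own reverse complement, so that 1 pass covers both strands. A match was found in 85 of 34788 windows (0.244%), which belonged to 84 of 27052 genes (0.311%). Of the 20 list members, 18 had a window and 3 had a match, and these 3 are shown as the members with a match. Each of the 3 was called above every line, as were 13 of all 20 members. The list holds p53 targets, so its share of matches beside that of all genes is not a test. Capitals mark the match.
MDM2: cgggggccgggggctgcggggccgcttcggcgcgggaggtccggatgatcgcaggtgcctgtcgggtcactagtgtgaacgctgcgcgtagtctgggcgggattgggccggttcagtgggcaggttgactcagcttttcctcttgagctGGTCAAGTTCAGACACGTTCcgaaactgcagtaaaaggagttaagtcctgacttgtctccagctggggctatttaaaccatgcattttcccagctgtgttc
FAS: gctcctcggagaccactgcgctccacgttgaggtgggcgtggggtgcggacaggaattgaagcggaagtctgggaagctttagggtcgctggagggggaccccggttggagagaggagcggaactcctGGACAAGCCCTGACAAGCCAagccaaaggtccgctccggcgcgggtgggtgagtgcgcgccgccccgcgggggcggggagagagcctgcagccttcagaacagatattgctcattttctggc
AEN: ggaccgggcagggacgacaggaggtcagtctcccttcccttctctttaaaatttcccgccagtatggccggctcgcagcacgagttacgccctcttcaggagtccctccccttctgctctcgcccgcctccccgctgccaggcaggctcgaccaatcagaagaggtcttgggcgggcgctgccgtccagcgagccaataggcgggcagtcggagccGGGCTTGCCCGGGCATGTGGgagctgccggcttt
MDM2 has another start whose window overlaps this one and holds the same match. The MDM2 window is chr12:68808774-68809023 on the plus strand, and the match spans bases 101 to 82 before that start. The FAS window is chr10:88991181-88991430 on the plus strand, with the match 122 to 103 bases before the start. AEN, a nuclease that takes part in apoptosis, has its window at chr15:88621090-88621339 on the plus strand, with the match 34 to 15 bases before the start. Its intensities were 105, 79.2 and 145 in MOLM-14, beside 83.1, 83.4 and 71.7 for U937, the nearest line, where the arrays overlapped. A match describes letters, and no binding was measured.

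Genes of FLT3 and STAT5 signalling were mostly higher in MOLM-14. Of 19 measured members, 12 were higher than the mean, 2 were lower and 5 were not called, with a median difference of 0.31. FLT3 itself had intensities of 1074, 1175 and 672 in MOLM-14, 124, 115 and 129 in HL-60, 91.3, 107 and 91.1 in THP-1 and 16.7, 20.2 and 35.6 in U937. The groups did not overlap, replicate 3 was the lowest MOLM-14 array, and the smallest of the differences was 2.82 ± 0.20 from HL-60 (adjusted p = 3.7e-12). In the MOLM-14 hairpin arrays, the lowest, median and highest values were 491, 838 and 1021, against 15.7, 88.1 and 138 in the other lines.

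Of the feedback inhibitors that STAT5 induces, SOCS2, CISH and SOCS1 were above every line. CISH had 121, 121 and 142 in MOLM-14, above the 76.5, 83.4 and 87.7 of U937, the nearest line, and SOCS1 had 20.7, 24.3 and 30.0 against at most 10.2 elsewhere. SOCS3 was near the dim end in all lines, with 8.49 to 12.7 over the 12 arrays, although its difference of 0.10 ± 0.04 was called (adjusted p = 0.0438). That call was lost under several alternatives, among them each fit without 1 MOLM-14 array (adjusted p = 0.0754, 0.176 and 0.0795 without replicates 1, 2 and 3). The D cyclins CCND2 and CCND3, which drive entry into S phase, were also higher than in every line. CCND2 was dim in THP-1 (5.46, 7.91 and 6.99) and bright in the others, so that its nearest-line difference of 0.54 from HL-60 was far smaller than the 6.11 from THP-1. PIM1, a kinase induced by STAT5, had 90.6, 70.9 and 51.9 in MOLM-14, beside 80.3, 63.5 and 65.7 in U937, a difference of 0.01 ± 0.25 between the lines (adjusted p = 0.981). The lower members were ID1 (-0.71 ± 0.18), a dominant-negative helix-loop-helix protein, and BCL2L1 (-0.64 ± 0.09), the anti-apoptotic BCL-XL. Both calls rested on U937, without which ID1 was -0.38 (adjusted p = 0.118) and BCL2L1 -0.23 (adjusted p = 0.0614) from the mean.

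In the KMT2A-fusion list FLT3 alone was higher than in every line, and several members had a like or higher level in THP-1. Of 18 measured members, 8 were higher than the mean, 1 was lower and 9 were not called. MEF2C, a transcription factor of myeloid progenitors, had 990.1, 981 and 756 in MOLM-14 and 1217, 1255 and 1218 in THP-1, against 18.9, 32.6 and 23.5 in HL-60 and 64.6, 82.9 and 73.8 in U937. MOLM-14 was -0.40 ± 0.12 from THP-1 (adjusted p = 0.00496), so THP-1 was above MOLM-14, and both lay far above the others. PBX3, a homeobox cofactor of HOX proteins, showed the same order, with 744, 699 and 629 in MOLM-14 and 1160.0, 1135 and 1285 in THP-1, and values of 51.8 to 129 in HL-60 and U937. JMJD1C, a chromatin factor, had 475, 468 and 409 and 505, 492 and 463 in these lines, whose difference was not called (-0.09 ± 0.13, adjusted p = 0.664).

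MEIS1, the HOX cofactor needed by KMT2A-fusion leukemia, was not at a like level in MOLM-14 and THP-1. It had 229, 221 and 258 in MOLM-14, 569.8, 504 and 532 in U937, 6.54, 6.87 and 7.07 in HL-60 and 5.92, 6.36 and 6.396 in THP-1. U937 was therefore 2.12-fold above MOLM-14, and THP-1 and HL-60 were both dim. MLLT3, the fusion partner gene, had 90.9, 63.6 and 65.0 in MOLM-14 and 77.4, 64.7 and 82.8 in THP-1, and 21.3 to 34.0 in the other lines. The anti-apoptotic BCL2 (0.39 ± 0.18), CDK6 (0.32 ± 0.14) and MYB (0.14 ± 0.09) were not called. These calls turned with the arrays used: in columns 1 to 6 BCL2 was at 0.61 (adjusted p = 4.0e-05), CDK6 at 0.48 (adjusted p = 0.00641) and MYB at 0.16 (adjusted p = 0.0432). Without MOLM-14 replicate 3, BCL2 was at 0.55 (adjusted p = 0.0446) and CDK6 at 0.46 (adjusted p = 0.0178). Without THP-1, BCL2 was at 0.63 (adjusted p = 0.0099) and MYB at 0.25 (adjusted p = 0.028), and without U937 BCL2 was at 0.06 (adjusted p = 0.858). HOXA3 to HOXA13 are not analysed here. The median of the list was 0.37, -0.03 and 0.28 against HL-60, THP-1 and U937.

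**Figure D3:**
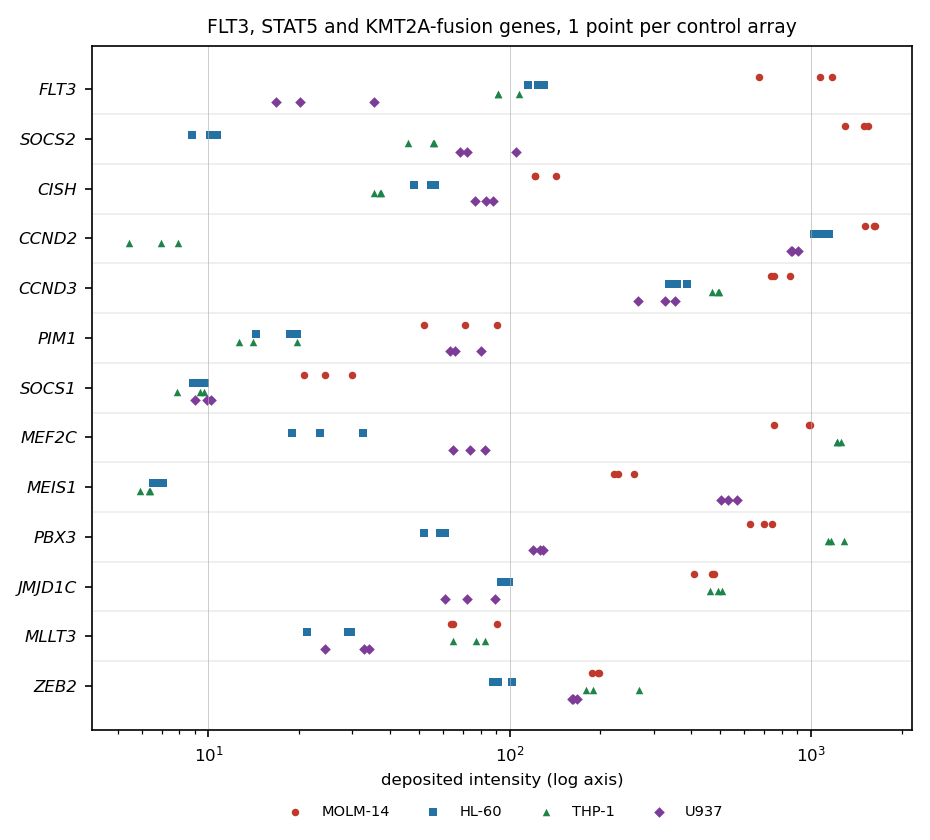
Deposited intensity (log axis) of 13 genes of the FLT3, STAT5 and KMT2A-fusion lists, with 1 point for each of the 12 control arrays. FLT3, SOCS2, CISH, CCND2, CCND3 and SOCS1 have all MOLM-14 points to the right, MEF2C, PBX3 and JMJD1C have MOLM-14 beside or below THP-1, and MEIS1 has U937 to the right.

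The immediate early genes EGR1 and FOS varied widely among replicates. EGR1, a zinc finger factor induced by ERK signalling, had 830.4, 745 and 177 in the MOLM-14 replicates, and the U937 arrays gave 38.3, 41.4 and 459, so replicate 3 was low in the former and high in the latter. Its difference of 2.61 ± 0.75 from the mean was called (adjusted p = 0.006), and was 3.69 in columns 1 to 6 but 0.45 in replicate 3. Without MOLM-14 replicate 1 it was 2.22 and not called (adjusted p = 0.0531). FOS showed the same, with 1.80 and 0.40. DUSP6, a phosphatase that limits ERK, was steadier, with 503, 559 and 464 against 379, 378 and 416 in U937, the nearest line, and a call above every line. In the ERK list, 8 of 19 members were higher, 4 lower and 7 not called, with a median of 0.15.

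Among receptors and surface antigens, IL3RA, the interleukin 3 receptor alpha chain known as CD123 and a target in AML, was 1 of 4 cytokine receptor genes above every line. It had 156, 126 and 125 in MOLM-14 and 12.04 to 29.1 in the other 9 arrays, a difference of 2.15 ± 0.06 (adjusted p = 1.2e-20). CSF2RB, the beta chain with which that receptor signals, was lower than in every line, with 85.8, 79.9 and 63.6 against 164, 179 and 156 in U937, the nearest. FLT3, IL7R (0.97 ± 0.11) and IFNGR1 (0.55 ± 0.07) completed the higher group, and TGFBR2 (-0.92 ± 0.09), a TGF-beta receptor, was lower than in every line. The receptors KIT (-0.14 ± 0.11) and CSF1R (0.00 ± 0.07) and the stem cell antigen CD34 (0.03 ± 0.05) were not called. Of 34 measured receptors, 7 were higher (20.6%) and 12 lower (35.3%), with a median of -0.06. Among 21 AML surface antigens 8 were higher and 3 lower. CSPG4, the proteoglycan NG2 that marks KMT2A-rearranged leukemias, was above every line, with 23.6, 27.5 and 33.5 in MOLM-14 and 7.08 to 15.8 elsewhere (0.76 ± 0.08).

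Adhesion genes were called in both directions, with 11 of 21 higher, 7 lower and a median of 0.47. NCAM1, the neural adhesion molecule CD56, had 374, 371 and 316 in MOLM-14, 59.0, 65.4 and 62.3 in THP-1, 16.01, 10.7 and 9.30 in HL-60 and 17.8, 18.0 and 41.9 in U937. The arrays did not overlap, but 2 of its 4 other probe sets had the opposite sign, with differences from -0.03 to 1.30 over the 4. ICAM2 (1.75 ± 0.11) and the integrin chains ITGAL (1.21 ± 0.08) and ITGAM (0.65 ± 0.10) were also above every line. The median of the list was 0.43 in columns 1 to 6 and 0.24 in replicate 3. No adhesion gene was lower than in every line, a call that only 4.75% of all genes had. ITGA6, a laminin-receptor chain, had 404 on average in U937 and 15.3 in MOLM-14, with 10.4 to 14.5 in HL-60 and THP-1.

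Of 16 primary and eosinophil granule genes, 3 were higher (18.8%, beside 19.3% of all genes) and 6 lower (37.5%, beside 22%). Their median was -0.89 against HL-60, -0.03 against THP-1 and 0.02 against U937, so that the median was well below 0 against HL-60 alone. MPO, myeloperoxidase of primary granules, had 118, 123 and 77.8 in MOLM-14, 5827, 5542 and 5357 in HL-60, 16.7, 16.3 and 20.1 in THP-1 and 11.4, 12.3 and 10.6 in U937. The groups did not overlap, and MOLM-14 was -5.49 from HL-60 but 1.90 and 2.14 from THP-1 and U937. ELANE was not called against any line, with 2759, 2924 and 4103 in MOLM-14 (-0.05 ± 0.26, adjusted p = 0.899). MS4A3, a granulocyte progenitor protein, was lower than in every line, with 401, 423 and 556 against 843, 803 and 1158 in U937. Of 20 secondary and tertiary granule genes, 1 was higher (5%), 10 were lower (50%) and 9 were not called, with medians of -0.23, -0.01 and -0.04 against HL-60, THP-1 and U937. The higher one was CHI3L1, a chitinase-like protein, whose sign rested on U937 (-0.29 without it), at 1571 on average against 900.5 in HL-60, 4149.7 in THP-1 and 81.9 in U937.

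Monocyte genes were called lower in 11 of 35 members (31.4%, beside 22% of all genes) and higher in 6 (17.1%, beside 19.3%), with 3 below and 3 above every line. Their medians lay near 0, at -0.08, -0.03 and 0.06 against HL-60, THP-1 and U937. CYBB, the catalytic subunit of the phagocyte oxidase, had 43.5, 34.4 and 23.3 in MOLM-14, 90.8, 103 and 96.1 in THP-1, 328, 340.0 and 165 in U937 and 1523, 1516 and 1491 in HL-60, without overlap. Its partner NCF4 was lower than in every line too (-0.84 ± 0.07). CD14 was dim in all lines but HL-60, where it had 274, 258 and 255. LGALS3, galectin-3, was higher than in every line, with 694, 709 and 713 against 248 to 443. S100A8, a calcium-binding alarmin of phagocytes, was not called (1.22 ± 0.53, adjusted p = 0.0665, but 0.50 with an adjusted p of 4.8e-05 in columns 1 to 6), with 1006, 1103 and 3228 in MOLM-14 beside 122, 117 and 23.7 for U937, replicate 3 again standing apart in both. HL-60 lay above MOLM-14 for S100A8, and without HL-60 in the mean the difference was 2.725 and called (adjusted p = 2.1e-04).

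Fc receptors, TREM receptors and their adaptors were lower in 9 of 18 members (50%, beside 22% of all genes) and higher in 3 (16.7%). Their medians were -0.12 against HL-60, -0.01 against THP-1 and 0.03 against U937. TYROBP, the adaptor DAP12, had 326, 317 and 317 in MOLM-14, below HL-60 (-1.14) and THP-1 (-1.79) but above U937 (0.99). CLEC5A, a C-type lectin that signals through DAP12, was at the dim end in MOLM-14 and THP-1 (means 5.97 and 5.91) and at 357 and 397 in HL-60 and U937. SYK, the kinase that reads ITAMs, was lower than in every line (-0.42 ± 0.04). FCGR2B, the inhibitory Fc receptor, went the other way, with 149, 159.7 and 63.3 and a call above every line. Its arrays overlapped those of U937 (39.3, 34.0 and 80.8), the call was not made in the hairpin arrays, and its difference was 2.27 in columns 1 to 6 and 0.88 in replicate 3.

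Transcription factors of the myeloid lineage were called in both directions, 14 higher and 11 lower of 31. CEBPB, a factor of monocyte maturation, had 359.9, 375 and 306 in MOLM-14 and 548 to 1516 elsewhere, and GFI1 (-0.82 ± 0.05), BCL6 (-0.76 ± 0.10) and TFEC (-1.12 ± 0.09) were lower than in every line as well. IRF8, a factor of monocytes and dendritic cells, had 1748, 1758 and 2164 in MOLM-14 and 2112, 2095 and 2205 in THP-1, against 359 to 588 in HL-60 and U937. The difference between MOLM-14 and THP-1 was -0.22 ± 0.15 (adjusted p = 0.252). CEBPE, a factor of late granulocytes, was at 10.5 on average in MOLM-14 and 185 in HL-60. SPI1, the factor PU.1, had values of 15.6 to 32.7 over the 12 arrays and was lower than the mean (-0.28 ± 0.06, adjusted p = 2.4e-04). None of the 31 was higher than in every line, a call that only 6.25% of all genes had.

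MHC class II genes, which present antigen to T helper cells, were higher in MOLM-14 or not called, 10 and 9 of 19. HLA-DRA, the alpha chain of HLA-DR, had 155, 135 and 47.1 in MOLM-14, 9.76, 12.1 and 10.6 in HL-60, 15.7, 12.4 and 9.70 in THP-1 and 11.4, 8.72 and 22.5 in U937. The groups did not overlap, and the difference was 2.08 ± 0.44 (adjusted p = 3.4e-04), with 2.57 in columns 1 to 6 and 1.09 in replicate 3. CD74, the invariant chain, had 212, 226 and 258 in MOLM-14 and 39.2 to 142 elsewhere, and HLA-DMA and HLA-DPA1 were above every line too. HLA-DRB1 was highest in THP-1 (315, 376 and 402), and its probe set can also read related DRB genes. CIITA, the activator of these genes, was dim and not called (-0.03 ± 0.04). The list median was 0.33, with 0.46 in columns 1 to 6, 0.09 in replicate 3 and 0.49 in the hairpin arrays.

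Of the class I pathway, the peptide-trimming enzymes ERAP1 (525, 537 and 455) and ERAP2 (103, 101 and 123) were higher than in every line. For ERAP1, 3 of 5 other probe sets had the same sign. The peptide transporter subunit TAP2 (19.6, 15.2 and 22.8, against 42.0 to 141 in the others) and the light chain B2M (4447, 4275 and 3442) were lower than in every line. In all 4 of 14 were higher and 3 lower. Probe sets of the HLA genes can read near-identical relatives, and their values are uncertain for that reason.

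Interferon-stimulated genes were lower in 20 and higher in 7 of 35 members, with a median of -0.43. The lines differed in this, with medians of -1.27 against THP-1, 0.14 against HL-60 and -0.02 against U937. IFITM3, an antiviral membrane protein, had a mean of 2346 in THP-1 and 221 in MOLM-14, but 53.4 in HL-60. Lower than in every line were IFIH1, the RNA sensor MDA5, with 28.0, 38.6 and 39.6 against 73.4 to 213, and MX2, an antiviral GTPase, with 17.6, 10.3 and 14.5 against 18.4, 25.1 and 17.7 in HL-60. TRIM22, an antiviral ubiquitin ligase that p53 also induces, was the single member above every line, with 921, 974 and 1193 in MOLM-14, 50.7, 59.2 and 54.5 in HL-60, 182, 193 and 224 in THP-1 and 116, 114 and 124 in U937. XAF1, a pro-apoptotic member, had 343, 350.4 and 228 in MOLM-14 and 329, 377 and 361 in THP-1, and at most 51.9 in the other lines. Toll-like receptors and adaptors gave 8 higher and 6 lower of 21, with the lipopolysaccharide receptor TLR4 (-0.92 ± 0.08) and the adaptor MYD88 (-0.47 ± 0.06) below every line, the latter not called so in the hairpin arrays.

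Lysosomal genes were lower in 23 of 37 members and higher in 3, with a median of -0.40. Lower than in every line were 7 of them. CTSD, cathepsin D, had 33.0, 28.3 and 61.2 in MOLM-14, 94.9, 96.1 and 92.3 in THP-1, 147, 164 and 165 in HL-60 and 315, 423 and 483 in U937. GUSB, beta-glucuronidase, had 462, 460.1 and 518 against 828 to 1654, and GLB1, beta-galactosidase, 157, 165 and 109 against 211 to 1048. The cholesterol transporter NPC1 (-0.95 ± 0.11) and the hexosaminidase subunit HEXA (-0.78 ± 0.12) were lower than every line in the control arrays but not called so in the hairpin arrays. TFEB, a transcription factor of lysosomal genes, was higher than the mean (0.70 ± 0.08), with 114, 110.1 and 133 in MOLM-14 and 103, 102 and 114 in THP-1. The list median was -0.10 against HL-60, -0.60 against THP-1 and -0.45 against U937, and -0.16 in the hairpin arrays.

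Targets of the oxidative stress factor NRF2 and the metallothioneins were lower in 19 of 27 and higher in 1, with a median of -0.38. ABCC1, a drug and glutathione-conjugate exporter, had 155, 125 and 131 in MOLM-14 and 228 to 444 in the other lines. FTL, the ferritin light chain (-0.63 ± 0.09), and the metallothionein MT1E (-0.73 ± 0.09) were also lower than in every line. GCLM, a subunit of the glutathione-making ligase, had -1.37 in columns 1 to 6 and 0.00 in replicate 3. The higher member was KEAP1 (0.23 ± 0.06), the inhibitor of NRF2, whose call was lost without HL-60 (0.11, adjusted p = 0.183). The list median was -0.39 in columns 1 to 6 and -0.15 in replicate 3.

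Complement, protease and inhibitor genes were lower in 12 and higher in 2 of 29. PLAU, urokinase, had 214, 221 and 249.9 in MOLM-14 and a call above every line, with 91.9, 83.7 and 86.0 in HL-60, the nearest. Sterol and fatty acid synthesis genes were lower in 7 and higher in 1 of 22, and the squalene epoxidase SQLE (-1.11 ± 0.20), the desaturase FADS1 (-1.43 ± 0.23) and the sterol desaturase SC5D (-0.80 ± 0.07) were lower than in every line. The arrays of FADS1 overlapped those of HL-60 and those of SC5D overlapped U937 (226, 257 and 226 against 312, 305 and 256).

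ATF4 and serine metabolism genes, which answer amino acid and endoplasmic reticulum stress, were higher in 11 and lower in 5 of 25, with 6 above every line. These 6 were DDIT4, the stress factors ATF3 (0.60 ± 0.12) and XBP1 (1.01 ± 0.17), HERPUD1 (1.00 ± 0.12) of endoplasmic reticulum protein degradation, and PSPH (1.52 ± 0.17) and SHMT2 (0.78 ± 0.09), enzymes of serine synthesis and use. The list median was 0.29 in columns 1 to 6 and 0.06 in replicate 3.

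In growth and metabolism, 12 of 27 MYC and ribosome biogenesis genes were higher and 3 lower. MYC itself was not called against the mean (0.15 ± 0.18), though it was without HL-60 (0.69) and, with the opposite sign, without THP-1 (-0.50), with 4402, 4972 and 3349 in MOLM-14, 8043, 7444 and 7514 in HL-60, 1466, 1472 and 1419 in THP-1 and 3764, 3968 and 5625 in U937. MAX, the partner of MYC, was lower than in every line, with 261, 227 and 221 against 367 to 577. The list median was 0.74 against THP-1, -0.13 against HL-60 and 0.00 against U937. Respiratory chain genes gave 14 higher and 8 lower of 32 with a median of 0.04. Sugar transporters were split: SLC2A3 was higher than in every line (317, 269 and 229, against 115, 123 and 107 in U937), and SLC2A1 (-0.74 ± 0.08) and SLC2A5 (-1.38 ± 0.12) were lower.

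Cell cycle genes held CDKN1A, the D cyclins CCND2 and CCND3 and their kinase CDK4 on the higher side of every line, and CDC20, an activator of mitotic exit, on the lower side with arrays that overlapped. Of 32 members 6 were higher (18.8%) and 11 lower (34.4%), and of 24 replication genes 1 was higher (4.17%) and 6 lower (25%). Medians were -0.09 and -0.23 in the control arrays, but -0.54 and -0.83 in the hairpin arrays. The difference between these medians was not tested. Among BCL2-family and caspase genes, BIK, a BH3-only protein, had 1003, 952 and 1061 in MOLM-14 and was above every line, as were BAX and HRK, while BAD (-0.79 ± 0.06) and BAK1 (-0.44 ± 0.08) were below every line. TNFAIP3, the NF-kB inhibitor A20, had 381, 353 and 338 in MOLM-14, 229, 264 and 247 in HL-60, 107, 88.2 and 103 in THP-1 and 90.3, 87.8 and 70.2 in U937.

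The targets of the study's hairpins were not called against the mean of the other lines in control cells. GSK3B had 165, 170.4 and 140.2 in MOLM-14 and a difference of -0.13 ± 0.08 from the mean (adjusted p = 0.217). GSK3A had 46.7, 44.3 and 46.6 and 0.03 ± 0.05 (adjusted p = 0.638), with HL-60 above it (-0.24) and THP-1 below (0.29). CTNNB1, beta-catenin, which the GSK-3 kinases mark for degradation, was lower than in every line, with 618, 628 and 659.7 against 729 to 1766. TCF7L2, a DNA-binding partner of beta-catenin, was higher than in every line, with 189, 163 and 144 against 111, 112 and 110.3 in U937. Without HL-60 in the mean, GSK3A was called higher (0.17, adjusted p = 0.00651). Of 28 pathway genes 7 were higher (25%), 8 lower (28.6%) and 13 not called, shares near the 19.3% and 22% of all genes, with a median of -0.01.

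Some genes used as markers of other lineages were higher in MOLM-14 than in every other line, in lists whose share of higher genes was near or below that of all genes. BANK1, a B-cell scaffold protein, had 149, 136 and 139 in MOLM-14, 43.4, 44.1 and 34.7 in THP-1 and at most 8.79 in HL-60 and U937. Of 16 measured B-cell genes 2 were higher (12.5%, beside 19.3% of all genes), the other being BLNK (1.17 ± 0.24). ACTA2, smooth muscle actin, had 179.7, 251 and 199 against 11.5 to 46.5, and VIM, vimentin, 3153, 3109 and 3311 against 748 to 1351. The difference of ACTA2 from the mean was 2.70, but 1.35 with all its probe sets averaged. VIM was bright in every line. Of 23 epithelial and stromal markers 5 were higher (21.7%), 1 was lower (4.35%) and 17 were not called. EPCAM, CDH1, COL1A1 and DCN were below an intensity of 100 in every line. Of 16 erythroid genes 0 were higher and 4 lower, of 18 megakaryocyte and mast cell genes 2 were higher and 2 lower, and of 23 T and NK genes 1 was higher and 2 lower.

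**Figure D4:**
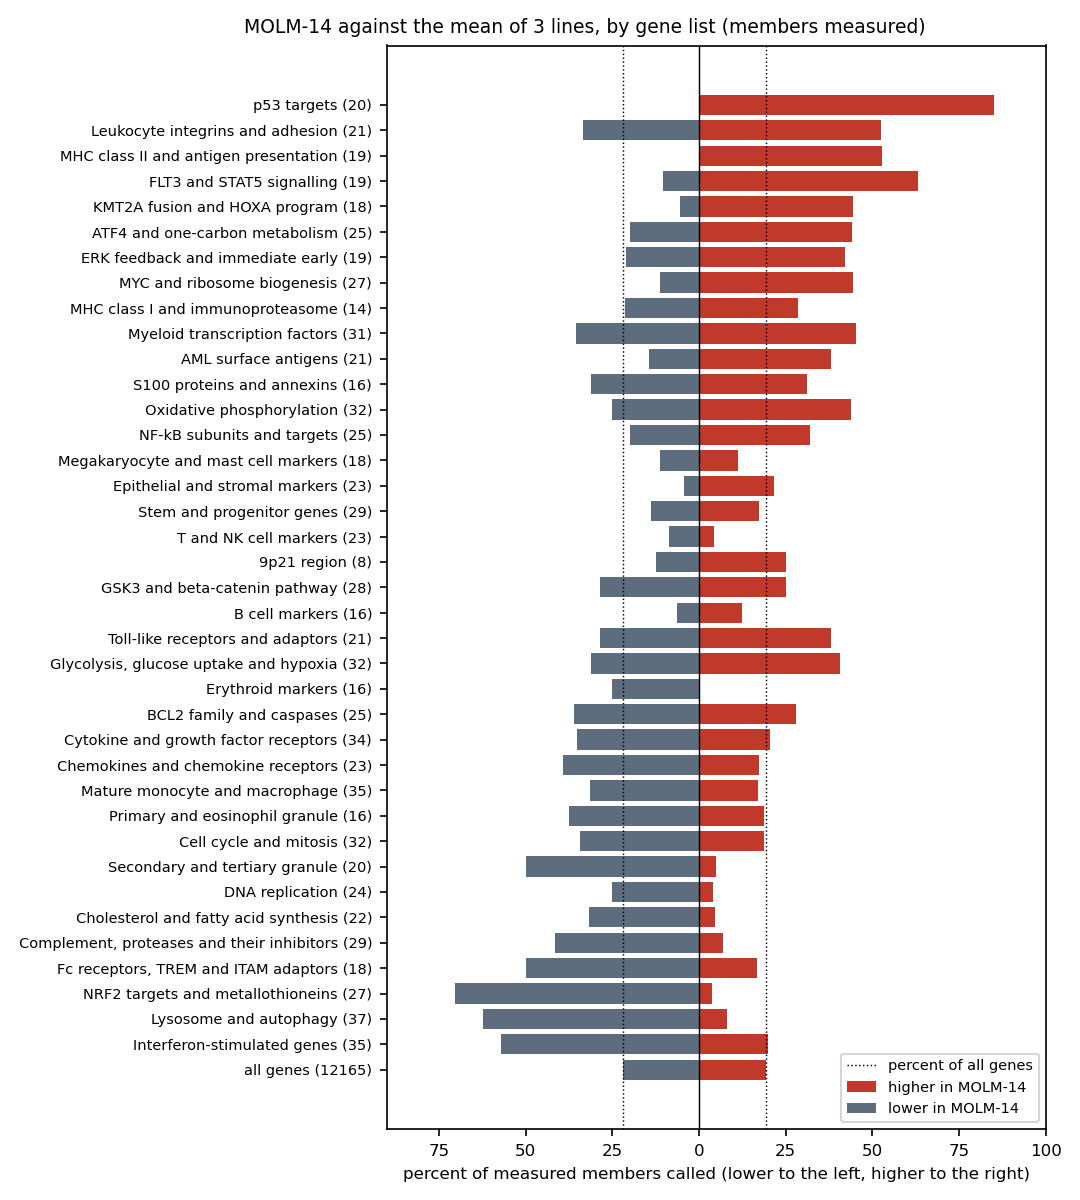
Percent of the measured members of each of 38 gene lists called higher (right, red) or lower (left, grey) in MOLM-14 control cells than in the mean of the other lines, ordered by the list's median difference, with the number measured in brackets. Dotted lines mark the 19.3% and 22% of all genes, and p53 targets are at the top with 17 of 20 higher. Interferon-stimulated genes, with the lowest median, stand last of the lists with 20 of 35 lower, above the row of all genes.

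Set against each line, MOLM-14 had 2199 genes higher (18.1%) and 2810 lower (23.1%) than HL-60, 2599 (21.4%) and 2624 (21.6%) than THP-1, and 2552 (21%) and 2647 (21.8%) than U937. At least 2-fold differences were 544 higher (4.47%) and 319 lower (2.62%) for HL-60, 508 (4.18%) and 570 (4.69%) for THP-1, and 566 (4.65%) and 546 (4.49%) for U937. The share of higher genes among those called was 43.9% for HL-60 and 49.8% for THP-1. Median scaling in place of quantile normalization gave 24.4% and 64.4%, with the median difference of all genes moved to -0.11 and 0.08, and cyclic loess gave 51.7% and 47.9%. These pairs share the MOLM-14 arrays.

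The largest differences in each pair were mostly in genes that a single other line had at a high or a dim level. Below HL-60 were MPO, PRG2, the eosinophil major basic protein (-5.61), LPL, lipoprotein lipase (-5.28), CYBB and the chemokine CXCL8 (-4.31). Below THP-1 were CA2, carbonic anhydrase 2 (-7.14), the matrix proteins NID1 (-5.06) and TGFBI (-5.56), BEX3 and FCER1G. Except for CA2 and FCER1G, these were at the dim end in MOLM-14, HL-60 and U937 alike. Below U937 were GPNMB, a lysosomal glycoprotein (-5.60), SERPINE2, a protease inhibitor (-4.58), CLEC5A, HS3ST2 and CDKN2A, the cell cycle inhibitor p16 (-4.24).

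In the other direction, LAPTM4B, a lysosomal membrane protein of leukemic stem cell signatures, had 3553, 3628 and 4118 in MOLM-14, 1923 to 2396 in HL-60 and THP-1, and 11.2, 8.44 and 6.76 in U937. HMGN3, SDCBP and YBX3 were likewise dim in U937 alone. EPB41L2, a membrane skeleton protein, had 753, 761 and 769.6 in MOLM-14 and 719, 636 and 709.8 in THP-1, whose difference was not called (0.18 ± 0.09, adjusted p = 0.0894), and at most 10.98 in HL-60 and U937. RAB13 and TUBB6 were dim in HL-60, and EPB41L3 and CST7 in THP-1. MTAP, a neighbour of CDKN2A on chromosome 9, had 36.2, 39.2 and 28.5 in MOLM-14 and 7.92, 8.35 and 7.09 in THP-1, while CDKN2A had 9.07, 8.37 and 9.92 and 8.97, 10.4 and 7.996.

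THP-1 was the nearest line for 53 of the 108 genes at least 2-fold higher (49.1%), beside 28 for U937 and 27 for HL-60. Among all 760 genes higher than in every line the shares were 38.2% for THP-1, 33.7% for HL-60 and 28.2% for U937. Over all genes HL-60 had the smallest root mean square difference from MOLM-14, 0.616 beside 0.638 for THP-1. Of the 42 genes at least 2-fold lower, HL-60 was nearest for 18, THP-1 for 14 and U937 for 10. Among all 578 lower genes HL-60 was nearest for 38.8%, THP-1 for 33.9% and U937 for 27.3%.

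Position on the chromosomes, which played no part in the choice of genes, divided the calls unevenly. Dim genes are seldom called, so the counts were restricted, after the values had been seen, to 6588 genes with a mean intensity of at least 32. Among these, 29.4% were higher than the mean of the other lines and 30.9% lower. On chromosome 10, 61.8% of 254 genes were higher and 11% lower, with a median difference of 0.33. Chromosome 13 had 58.8% of 131 genes higher (median 0.31), chromosome 12 had 53.7% of 369 (median 0.26) and chromosome 6 had 52.3% of 354 (median 0.23). At the other end, 59.1% of 220 genes on the X chromosome were lower (median -0.31), and 62.5% of 96 genes on chromosome 18 (median -0.30). Over all genes regardless of level the share higher was 40.2% on chromosome 10, 38.6% on 13, 33.4% on 12 and 30.3% on 6.

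These medians did not all come from the same line. For chromosome 10 they were 0.27, 0.36 and 0.33 against HL-60, THP-1 and U937, and for chromosome 13 they were 0.31, 0.46 and 0.21. Chromosome 12 differed less from HL-60 (0.09) than from THP-1 (0.36) and U937 (0.39). The low median of chromosome 18 was -0.66 against HL-60 but -0.08 and -0.11 against THP-1 and U937, and that of X was -0.20, -0.10 and -0.60 against HL-60, THP-1 and U937. In the hairpin arrays the medians of chromosomes 6, 10, 12 and 13 were 0.25, 0.33, 0.28 and 0.33. DNA copy number was not measured.

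**Figure D5:**
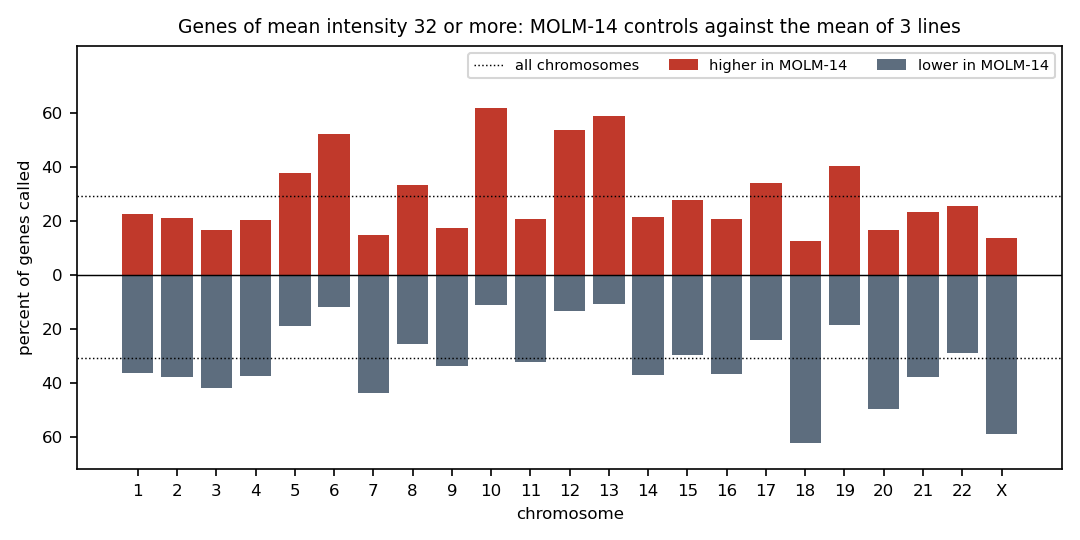
Percent of genes called higher (up, red) or lower (down, grey) in MOLM-14 control cells than in the mean of the other lines, by chromosome, for 6588 genes of mean intensity of at least 32. Dotted lines mark all chromosomes together, at 29.4% and 30.9%, and chromosomes 6, 10, 12 and 13 have the highest shares above, 52.3% to 61.8%.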

How the data were processed

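Expression was measured with 44 arrays of 4 lines, 11 each. The deposited values are array intensities on a linear scale, and the submitters' processing notes name RMA and MAS5. Which of them gave the table is not given in the sources used here. Array medians ran from 19.0 to 22.9 and upper quartiles from 139 to 151. Of 22277 probe sets, 19724 named 1 gene alone, and the brightest was kept for each of 12165 genes.

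Values of log2(intensity + 16) were quantile-normalized and fitted with limma 3.58.1 (R 4.3.3) as 20 group means over all 44 arrays. The p-values were adjusted by Benjamini-Hochberg over all genes. The contrast was the MOLM-14 control mean against the mean of the 3 other control means, with pair contrasts beside it. On simulated data 99.5% of 200 genes with a log2 change of 1 were recovered, with 12 false calls. The simulated arrays had independent normal noise and, apart from those changes, no difference between lines or plate columns. They therefore do not give the error rate of the calls in the real arrays. The labels call the 3 arrays of a group biological replicates and say no more, so p-values measure the spread between arrays.

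The genes named were the 15 highest and 15 lowest by nearest-line difference without overlap, the 5 largest per pair and direction, up to 5 called genes per list by adjusted p, and a fixed set (220 in all). A further 49 were named after their values were seen, among them EGR1, FOS, HLA-DRA, HLA-DRB1, S100A8, SESN1, CHI3L1, FCGR2B, GCLM, ELANE, PIM1 and IFITM3. The line comparison and the 38 gene lists were chosen with earlier results of these data known. Alternatives were normalization, pseudocount, dim filter, probe set choice, control arrays alone, plate columns, replicate block and leaving out arrays or lines.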

Additional observations from a re-analysis of the deposited data

Results flagged for a closer look

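For 8 of the genes named here the difference between MOLM-14 and the other lines itself differed, by at least 2-fold and at an adjusted p under 0.05 from limma, between plate columns 7 to 11 and columns 1 to 6. The MOLM-14 difference was smaller in columns 7 to 11 for EGR1, by -2.41 (adjusted p = 6.0e-09), and for HLA-DRA, by -2.09 (adjusted p = 2.3e-10). CD9, a tetraspanin, gave -1.29 (adjusted p = 5.0e-12), with 42.2, 55.4 and 14.1 in the MOLM-14 control arrays and 7.62 to 19.1 in the others. FCGR2B gave -1.18, FOS -1.12 and HLA-DRB1 -1.08. The change ran the other way for S100A8, at 2.15, and for GCLM, at 1.26. Of these 8 genes 7 were named after their values were seen, and CD9 by the fixed rule.

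For MPO the difference between MOLM-14 and the other lines was 1.28 higher in control than in hairpin arrays (adjusted p = 8.7e-08). The MOLM-14 arrays had 118, 123 and 77.8 in the controls, and their lowest, median and highest hairpin values were 19.7, 32.4 and 51.8.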

How the results depend on the processing

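Leaving out each control array in turn gave 2118 to 2404 genes higher and 2276 to 2729 lower than the mean, 689 to 765 and 487 to 582 against every line, and 106 to 114 and 40 to 46 past 2-fold. Against single lines it gave 2007 to 2236 and 2496 to 2853 for HL-60, 2339 to 2624 and 2398 to 2684 for THP-1, and 2315 to 2529 and 2409 to 2630 for U937. Replicate numbers did not pair the arrays, with correlations of -0.082 to 0.11 between same-numbered arrays. With the replicate number as a block the counts were 2387 and 2685 against the mean and 793 and 597 against every line, and none moved by over 1.5 times. Median scaling gave 5842 genes lower than HL-60 and 4502 higher than THP-1. A pseudocount of 1 gave 167 and 75 genes past 2-fold against every line, and 64 gave 61 and 16. With fewer lines to differ from, counts against every line were 1191 and 1022 without HL-60 (135 lower past 2-fold), 1338 and 1261 without THP-1 (268 and 115 past 2-fold), and 1020 lower without U937 (174 and 91 past 2-fold). With line means as samples the counts were 0 and 0. Requiring 2-fold left 356 and 267 genes against the mean, 108 and 42 against every line, 544 and 319 against HL-60, 508 and 570 against THP-1, and 566 and 546 against U937.

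Of 269 named genes, 26 changed sign under an alternative, 25 of them when a line left the mean. Without THP-1 the difference was 0.094 for ABCA1, 0.041 for BEX3, 0.31 for CSF1R, -1.88 for CST7, 0.023 for IFI27, 0.42 for IFITM3, -0.28 for KLHL9, -0.50 for MYC, -0.26 for NDUFA9, -0.78 for NKG7, 0.040 for TGFBI and 0.015 for TIMP3. Without HL-60 it was 0.013 for ARG1, -1.41 for CD93, 0.025 for DEFA4, 2.02 for MPO and 0.088 for PRG2. Without U937 it was -0.61 for CEBPD, -0.29 for CHI3L1, -0.13 for HMGN3, 0.085 for ITGA6, 0.41 for MTAP, -0.16 for PSMB10, -0.59 for SDCBP and 0.054 for TFR2. PMAIP1 gave 0.23 in columns 1 to 6, where it was called, and the cause was not tested.

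Line means aside, 198 of 269 named genes neither turned nor changed their call against the mean. Of 246 called genes, 35 kept their sign but lost the call when a line was left out. Genes that changed sign are outside this count. Among them, ABCA1, ARG1, BEX3, CHI3L1, DEFA4, HMGN3, IFI27, ITGA6, PRG2, TFR2, TGFBI and TIMP3 had no call with that line left out. Their adjusted p from limma ran from 0.252 to 0.926. When 1 array was left out 10 genes lost the call, namely CA1, CD9, EGR1, GCLM, GINS1, HLA-DRB1, LAT, RAG1, SOCS3 and TFR2. Under another setting CA1, GCLM, MCL1, MPO, RAG1, RFC3 and SOCS3 lost it. Of 23 genes not called, 10 gained a call with the sign kept when a line was left out, BBC3, BCL2, CDK6 and CXCL8 when 1 array was, and BBC3, BCL2, CDK6, CST7, CXCL8, MYB, MYC, NKG7 and S100A8 under another setting. With the sign turned, CSF1R gained a call without THP-1 (0.31, adjusted p = 5.9e-04). PMAIP1 did so in columns 1 to 6 (0.23, adjusted p = 0.00328). The replicate block gave BBC3 (adjusted p = 0.0118) and CDK6 (0.0434) a call and ended those of CA1, GCLM and RAG1. The control arrays normalized and fitted alone, a setting chosen after seeing the data, gave 810 and 622 genes against every line.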
